A study of Mus musculus with 16 samples.

Results

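The Hox genes of the Hoxa, Hoxb, Hoxc and Hoxd clusters were examined in the hearts of E10.5 mouse embryos (embryonic day 10.5). The members were all genes whose symbol is Hoxa, Hoxb, Hoxc or Hoxd followed by a paralog number from 1 to 13 and nothing else, and 39 of the 27179 genes in the count table met that rule. The values below are those of 38 of them. The hearts came from 4 genotypes with 4 embryos each. Ing4+/- Ing5-/- hearts had lost 1 Ing4 allele and both Ing5 alleles, so 1 of the 4 alleles of the 2 genes was kept. Ing4+/+ Ing5-/- hearts had lost both Ing5 alleles, Ing4+/- Ing5+/+ hearts had lost 1 Ing4 allele, and Ing4+/+ Ing5+/+ hearts, called wild-type here after their labels, had lost none. Neither the strain nor which parts of the genes were deleted is given in the sources used here. ING4 and ING5 are related proteins that bind methylated histone H3 and belong to complexes with the histone acetyltransferases of the MYST family.

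Hox genes encode homeodomain transcription factors that give cells their position along the body axis. Their order along each chromosome follows the order in which they are switched on, and genes of the same paralog number in different clusters are the closest relatives of each other. Genes with low numbers act in the hindbrain, the pharyngeal region and the heart field, where retinoic acid switches several of them on and where progenitors of the outflow tract and the atria express them, while genes with high numbers act in the trunk, the limbs and the tail. HOX proteins bind DNA together with PBX and MEIS proteins, and trithorax, polycomb and MYST acetyltransferase complexes are known to keep Hox genes on or off.

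RNA of each heart was sequenced as a stranded library with a total of 19753100 to 35664331 counted reads, and 3 reads, the floor used for a gene with none, stood for 0.0841 to 0.152 CPM. Levels are given in CPM, reads in proportion to the TMM-scaled library size, and levels of different genes are compared per kilobase (kb) of the deposited gene length. The hearts held the transcripts of their tissue: 10 cardiomyocyte genes summed to 20370 CPM in the library labelled Ing4+/+ Ing5-/- 1 and to 27980 to 33920 CPM in the other 15 libraries. Ing5 had 18.5 to 29.3 CPM in Ing4+/+ Ing5-/- hearts and 28.9 to 36.9 CPM in Ing4+/+ Ing5+/+ hearts, and the library labelled Ing4+/+ Ing5-/- 1 was the one at 29.3 CPM, inside the wild-type range. That library stood apart from the other 15 in several respects, so the results below are given with and without it. Ing4 had 32.0 to 36.3 CPM in the 8 hearts labelled Ing4+/-, 43.5 to 60.7 CPM in Ing4+/+ Ing5-/- hearts and 42.6 to 44.4 CPM in 3 of the wild-type hearts. The library labelled Ing4+/+ Ing5+/+ 2 had 28.2 CPM of Ing4, the lowest of the 16 and below every heart labelled Ing4+/-, which goes against its label, so the comparisons with wild-type hearts are also given without it. The embryos were from 7 litters, none of which had Ing4+/+ Ing5-/- as well as Ing4+/+ Ing5+/+ embryos, so that comparison is linked within litters only through hearts of other genotypes. In whole hearts, fewer cells of a type and less RNA per cell cannot be told apart.

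Hox expression in these hearts lay at the low paralog numbers. Of the 38 genes, the 14 with paralog numbers 1 to 5 took 95.66% of the 7794 reads, and the 24 with numbers 6 to 13 took the other 338 reads. Paralog 2 held 36.55% of the reads, paralog 3 33.1%, paralog 4 16.1% and paralog 5 9.135%. These shares were 39.46%, 34.37%, 15.03% and 6.631% without the library labelled Ing4+/+ Ing5-/- 1. With that library, paralog 6 held 1.51%, no number above it reached 1%, and Hoxb1 and Hoxd1 together held 0.783%. By cluster, Hoxb genes held 74.1% of the reads, Hoxa genes 19.9%, Hoxc genes 3.82% and Hoxd genes 2.13%. Without the library labelled Ing4+/+ Ing5-/- 1 Hoxb genes held 78.3%, Hoxa genes 16.4%, Hoxc genes 3.06% and Hoxd genes 2.22%.

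**Figure D1:**
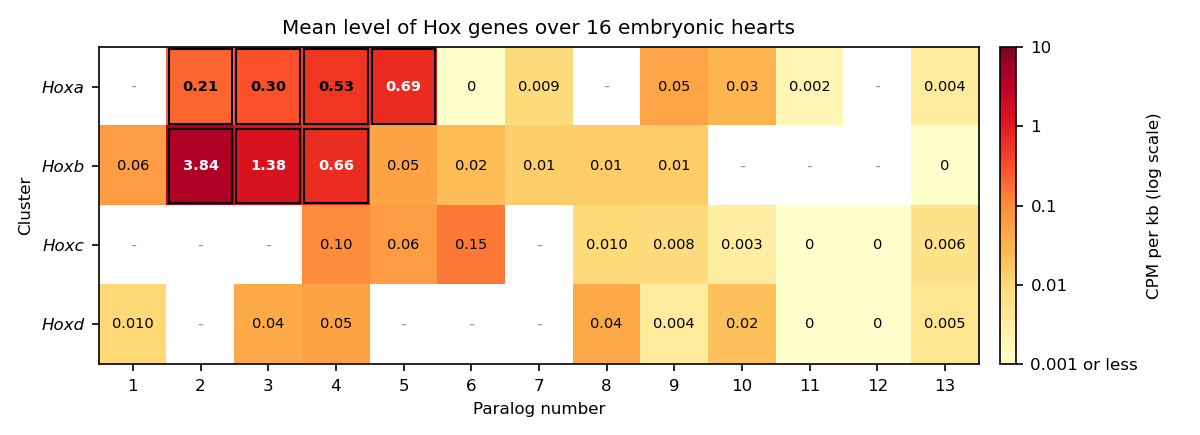
Mean level of Hox genes over the 16 hearts in CPM per kb (colour, log scale; number in each cell), by cluster (rows) and paralog number (columns). Dashes are positions without a value here, a 0 is a gene without a read in any library, and framed cells are the 7 genes that passed the low-count filter. Levels are highest for Hoxb2 and Hoxb3 and low or 0 to the right of paralog 5.

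Hoxb2, a hindbrain and neural crest gene, had the highest mean level, at 3.84 CPM per kb over the 16 hearts. Hoxb3, which acts in the hindbrain and in the pharyngeal region, followed at 1.38 CPM per kb. Hoxa5, known for its part in lung and trachea development, Hoxb4, a gene of the hindbrain and neck, and Hoxa4 lay between 0.529 and 0.688 CPM per kb. Hoxa3, which patterns the derivatives of the third pharyngeal arch, had 0.297 and Hoxa2, which patterns the second pharyngeal arch, 0.211 CPM per kb. Of the 38 genes, these 7 passed the low-count filter among the 15785 genes tested, and 4 of them (Hoxb2, Hoxb3, Hoxb4 and Hoxa5) averaged at least 1 CPM. The Hoxa5 mean of 1.29 CPM includes 8.0 CPM in the library labelled Ing4+/+ Ing5-/- 1. Its median over the 16 hearts was 0.463 CPM, below the 1.505 CPM of Hoxb4.

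The other 31 of the 38 genes were not tested. Of these, 25 had reads, and the highest mean was 0.234 CPM for Hoxc6, a gene of the thoracic region. The highest single value among them was 1.33 CPM for Hoxc5, in the library labelled Ing4+/+ Ing5-/- 1. Outside that library it was 0.828 CPM for Hoxb1, a gene of the hindbrain and the second heart field, in Ing4+/- Ing5+/+ heart 4. Hoxa6, Hoxc11, Hoxd11, Hoxc12, Hoxd12 and Hoxb13 had no read in any of the 16 libraries, so that their level in each lay under the floor of 3 reads. No Hoxc or Hoxd gene passed the filter.

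The 7 genes lay at 2 loci (GRCm38, the assembly of the mm10 build named in the submitters' processing notes). On chromosome 6 the annotation placed Hoxa2 (gene ID 15399) at 52162417 to 52164831, Hoxa3 (15400) at 52169059 to 52213067, Hoxa4 (15401) at 52189682 to 52191703 and Hoxa5 (15402) at 52201754 to 52204587. On chromosome 11 it placed Hoxb3 (15410) at 96307101 to 96347930, Hoxb4 (15412) at 96318267 to 96321638 and Hoxb2 (103889) at 96351632 to 96354020. The span of Hoxa3 holds the whole of Hoxa4 (2022 bases) and Hoxa5 (2834 bases), and that of Hoxb3 the whole of Hoxb4 (3372 bases). How reads in shared stretches were counted is not given in the sources used here, so the split of reads between Hoxa3 and its neighbours, and between Hoxb3 and Hoxb4, is uncertain.

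The 250 bases before the annotated start of 3 tested genes are shown from RefSeq's GRCm38.p6 annotation because the gene was high in the library labelled Ing4+/+ Ing5-/- 1 and in Ing4+/- Ing5+/+ hearts 1 and 2 (Hoxa5), separated the Ing4+/+ Ing5-/- hearts from the wild-type hearts (Hoxa2) or carried a retinoid motif (Hoxb4). Capitals mark the motifs searched on both strands: TGATNNAT, the site of PBX with HOX, CTGTCA for MEIS, AGGTCA for retinoid receptors, the CCAAT box and TATAAA for the TATA box.
Hoxa2 promoter, chr6:52164832-52165081, strand -: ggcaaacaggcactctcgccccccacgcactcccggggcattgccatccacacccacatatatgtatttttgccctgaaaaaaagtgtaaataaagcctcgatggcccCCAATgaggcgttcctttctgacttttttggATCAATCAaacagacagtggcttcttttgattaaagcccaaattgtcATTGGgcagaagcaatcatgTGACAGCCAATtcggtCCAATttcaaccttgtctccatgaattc
Hoxb4 promoter, chr11:96318017-96318266, strand +: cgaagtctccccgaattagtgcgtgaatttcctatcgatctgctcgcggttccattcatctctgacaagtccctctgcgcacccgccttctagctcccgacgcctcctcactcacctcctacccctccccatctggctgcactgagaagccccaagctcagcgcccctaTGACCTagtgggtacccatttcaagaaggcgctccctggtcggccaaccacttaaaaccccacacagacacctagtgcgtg
Hoxa5 promoter, chr6:52204588-52204837, strand -: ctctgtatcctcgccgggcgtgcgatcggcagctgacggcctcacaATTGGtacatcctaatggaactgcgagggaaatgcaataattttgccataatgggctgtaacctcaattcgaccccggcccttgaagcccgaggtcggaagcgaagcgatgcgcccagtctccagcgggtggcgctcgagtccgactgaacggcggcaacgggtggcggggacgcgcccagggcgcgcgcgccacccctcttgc
In the Hoxa2 window, the PBX with HOX motif began 111 bases and the MEIS motif 44 bases before the start, and 4 CCAAT boxes were found, 1 of them next to the MEIS motif. The Hoxb4 window held 1 retinoid receptor motif, 81 bases before the start, and the Hoxa5 window 1 CCAAT box, 204 bases before it. The Hoxa3 window, the other one of a tested gene in the annotation used, held a MEIS motif 13 bases before the start. Over 32851 promoters of the same length, 7.68% held the PBX with HOX motif, 15.9% the MEIS motif, 14.0% the retinoid receptor motif, 33.9% the CCAAT box and 12.4% the TATA box. Of the 24 promoter windows of 22 members, 4 held the PBX with HOX motif, 2 the MEIS motif, 6 the retinoid receptor motif, 14 the CCAAT box and 4 the TATA box. A match describes these letters and is not evidence of a bound site.

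Summed over the members of a paralog number, levels per kb were compared between genotypes as descriptions. Paralog 2 had 3.75 ± 0.618 CPM per kb in Ing4+/- Ing5-/-, 5.47 ± 2.20 in Ing4+/+ Ing5-/-, 3.66 ± 0.579 in Ing4+/- Ing5+/+ and 3.33 ± 0.366 in Ing4+/+ Ing5+/+ hearts (SD, n = 4 each, as in the next sentences). The 4 genotypes overlapped. Without the library labelled Ing4+/+ Ing5-/- 1, the other 3 hearts of that genotype had 4.54 ± 1.44 CPM per kb (SD, n = 3).

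For paralog 3 the sums were 1.13 ± 0.345 CPM per kb in Ing4+/- Ing5-/-, 2.33 ± 1.35 in Ing4+/+ Ing5-/-, 2.21 ± 0.590 in Ing4+/- Ing5+/+ and 1.20 ± 0.421 in Ing4+/+ Ing5+/+ hearts. For paralog 4 they were 0.539 ± 0.211 CPM per kb in Ing4+/- Ing5-/-, 2.33 ± 2.25 in Ing4+/+ Ing5-/-, 1.84 ± 1.04 in Ing4+/- Ing5+/+ and 0.644 ± 0.313 in Ing4+/+ Ing5+/+ hearts. For paralog 5 they were 0.203 ± 0.104 CPM per kb in Ing4+/- Ing5-/-, 1.59 ± 2.30 in Ing4+/+ Ing5-/-, 1.15 ± 0.970 in Ing4+/- Ing5+/+ and 0.251 ± 0.101 in Ing4+/+ Ing5+/+ hearts. From paralog 3 to paralog 5 the means of both single mutants lay above those of Ing4+/- Ing5-/- and wild-type hearts, and so did their SDs. Without the library labelled Ing4+/+ Ing5-/- 1, the other 3 hearts of that genotype had 1.65 ± 0.101 CPM per kb for paralog 3, 1.22 ± 0.478 for paralog 4 and 0.446 ± 0.289 for paralog 5. That library alone had 5.66 CPM per kb for paralog 4 and 5.03 for paralog 5, against at most 2.67 and 2.31 in the other 15, both in Ing4+/- Ing5+/+ heart 2.

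Above paralog 5 no number had a sum over 0.650 CPM per kb in any heart. Paralog 6 had 0.0823 ± 0.0558 CPM per kb in Ing4+/- Ing5-/-, 0.296 ± 0.275 in Ing4+/+ Ing5-/-, 0.186 ± 0.107 in Ing4+/- Ing5+/+ and 0.114 ± 0.149 in Ing4+/+ Ing5+/+ hearts, and 0.178 ± 0.173 in Ing4+/+ Ing5-/- without the library labelled 1. The library labelled Ing4+/+ Ing5-/- 1 held 103 of the 338 reads of paralogs 6 to 13, and Ing4+/+ Ing5-/- heart 2 held 54. Paralog 9, among them Hoxa9 and Hoxb9 of the trunk, had 26 of its 73 reads in that library, paralog 10 had 21 of 61 and paralog 7 had 8 of 16. Both reads of paralog 11, in Hoxa11, came from it, and paralog 12 had no read.

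**Figure D2:**
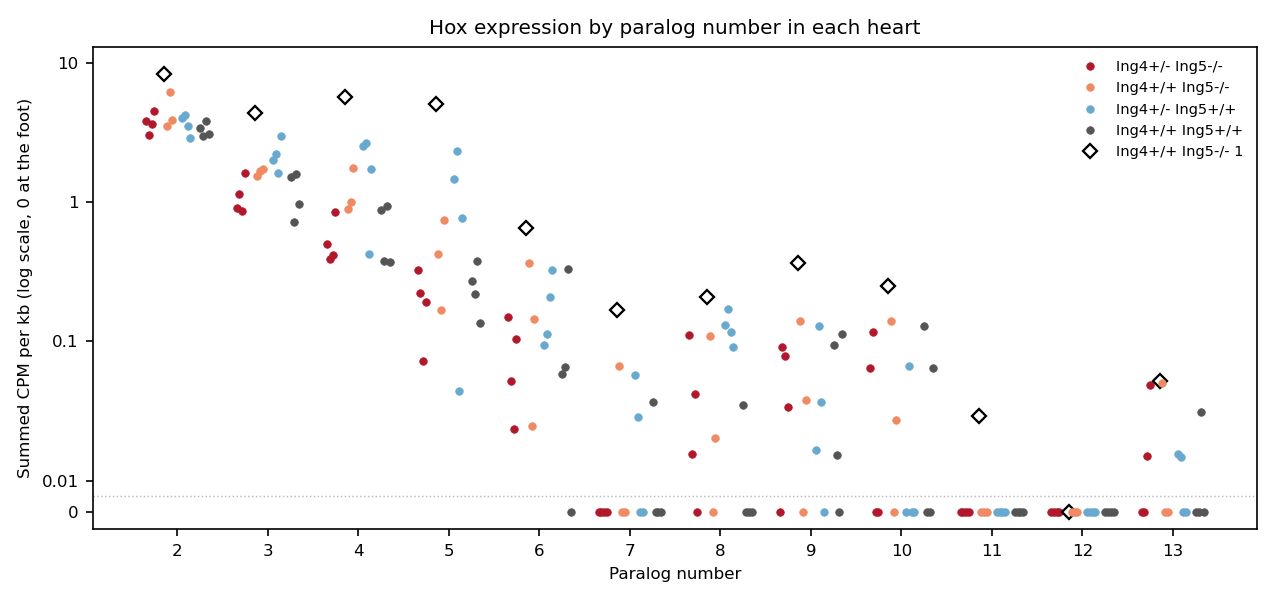
Summed level of the Hox genes of paralog numbers 2 to 13 in CPM per kb (log scale, with 0 drawn at the foot) in each of the 16 hearts, coloured by genotype. The open diamond is the library labelled Ing4+/+ Ing5-/- 1, which is the highest of all hearts for paralogs 2 to 11 and 13; all hearts are at 0 for paralog 12.

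Among the tested genes of paralog 2, Hoxb2 had 5.83, 4.86, 5.87 and 7.10 CPM in Ing4+/- Ing5-/- hearts 1 to 4, 12.7, 5.32, 9.32 and 5.80 in Ing4+/+ Ing5-/-, 5.90, 5.97, 5.71 and 4.75 in Ing4+/- Ing5+/+ and 5.52, 4.59, 5.95 and 5.04 in Ing4+/+ Ing5+/+ hearts. Apart from the library labelled Ing4+/+ Ing5-/- 1 and Ing4+/+ Ing5-/- heart 3, no heart exceeded 7.10 CPM. Hoxa2 had 0.373, 0.125, 0.0372 and 0.334 CPM in Ing4+/- Ing5-/-, 0.781, 0.478, 0.793 and 0.545 in Ing4+/+ Ing5-/-, 0.677, 0.904, 0 and 0 in Ing4+/- Ing5+/+ and 0.0464, 0.311, 0.266 and 0 in Ing4+/+ Ing5+/+ hearts. All 4 Ing4+/+ Ing5-/- hearts lay above all wild-type and all Ing4+/- Ing5-/- hearts, while Ing4+/- Ing5+/+ hearts were either high (1 and 2) or without a read (3 and 4).

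Among those of paralog 3, Hoxb3 had 3.05, 3.57, 2.94 and 5.30 CPM in Ing4+/- Ing5-/-, 12.1, 4.46, 5.95 and 5.20 in Ing4+/+ Ing5-/-, 5.79, 6.33, 4.96 and 6.19 in Ing4+/- Ing5+/+ and 5.15, 2.14, 5.39 and 3.62 in Ing4+/+ Ing5+/+ hearts. Every genotype overlapped every other. Hoxa3 had 0.237, 0.457, 0.149 and 0.417 CPM in Ing4+/- Ing5-/-, 2.54, 0.638, 0.198 and 0.861 in Ing4+/+ Ing5-/-, 1.02, 0.796, 0.708 and 3.01 in Ing4+/- Ing5+/+ and 0.325, 0.380, 0.379 and 0 in Ing4+/+ Ing5+/+ hearts. All 4 Ing4+/- Ing5+/+ hearts lay above all wild-type and all Ing4+/- Ing5-/- hearts.

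Among those of paralogs 4 and 5, Hoxb4 had 0.712, 0.706, 1.08 and 1.54 CPM in Ing4+/- Ing5-/-, 4.13, 1.47, 2.50 and 1.61 in Ing4+/+ Ing5-/-, 2.33, 2.97, 1.08 and 3.01 in Ing4+/- Ing5+/+ and 1.30, 0.725, 1.56 and 0.458 in Ing4+/+ Ing5+/+ hearts. In each single mutant 1 heart lay within the range of the wild-type hearts (Ing4+/+ Ing5-/- 2 and Ing4+/- Ing5+/+ 3) and the other 3 above it. Hoxa4 had 0.237, 0.0415, 0 and 0.376 CPM in Ing4+/- Ing5-/-, 5.14, 0.0638, 0.0397 and 1.44 in Ing4+/+ Ing5-/-, 2.14, 1.74, 0 and 0.654 in Ing4+/- Ing5+/+ and 0.325, 0, 0.493 and 0.255 in Ing4+/+ Ing5+/+ hearts. Hoxa5 had 0.610, 0.415, 0.112 and 0.334 CPM in Ing4+/- Ing5-/-, 8.0, 0.351, 0.317 and 1.18 in Ing4+/+ Ing5-/-, 2.59, 3.73, 0.0833 and 1.09 in Ing4+/- Ing5+/+ and 0.510, 0.414, 0.683 and 0.255 in Ing4+/+ Ing5+/+ hearts. Both genes were high in the library labelled Ing4+/+ Ing5-/- 1 and in Ing4+/- Ing5+/+ hearts 1 and 2, intermediate in Ing4+/+ Ing5-/- heart 4 and Ing4+/- Ing5+/+ heart 4, and low elsewhere. For both genes the SD within each single mutant (n = 4) was larger than the mean of Ing4+/- Ing5-/- hearts and that of wild-type hearts.

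**Figure D3:**
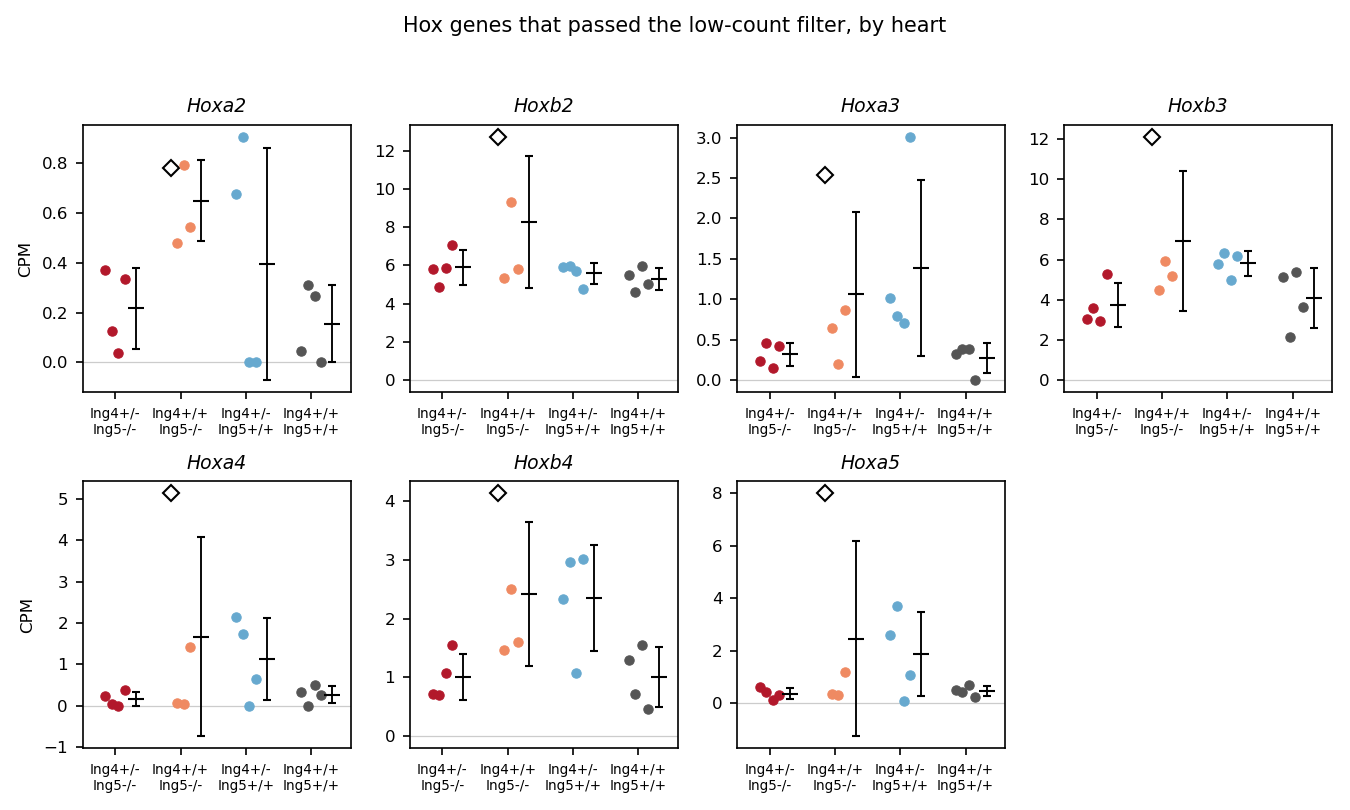
Levels in CPM of 7 Hox genes that passed the filter, 1 point per heart, by genotype; horizontal bars are means and error bars SDs (n = 4 hearts). The open diamond is the library labelled Ing4+/+ Ing5-/- 1, which is the highest of the 16 for 5 genes, with 8.0 CPM for Hoxa5.

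Other genes of paralogs 4 and 5 were too low to be tested, and the heart with the most reads of Hoxc4, Hoxc5 and Hoxb5 was again the library labelled Ing4+/+ Ing5-/- 1. Hoxc4 had 37 of its 90 reads and Hoxc5, which like Hoxc4 is a gene of the neck, 41 of its 79 reads in the library labelled Ing4+/+ Ing5-/- 1. Hoxd4 had its highest level in another heart: 10 of its 58 reads were in Ing4+/- Ing5+/+ heart 2 (0.362 CPM), 11 in Ing4+/+ Ing5-/- heart 2 (0.351 CPM) and 6 in the library labelled Ing4+/+ Ing5-/- 1 (0.195 CPM). In Ing4+/- Ing5+/+ heart 2 Hoxc4 had 13 and Hoxc5 19 reads, and in Ing4+/- Ing5+/+ heart 1 they had 8 and 6 reads. Hoxb5 had 16 of its 43 reads in the library labelled Ing4+/+ Ing5-/- 1, 12 in Ing4+/+ Ing5-/- heart 2 and 8 in Ing4+/- Ing5+/+ heart 4. In the 4 Ing4+/- Ing5-/- hearts, Hoxc4 had 1 read, Hoxc5 2 reads, Hoxd4 9 reads and Hoxb5 none.

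Of the other untested genes, Hoxd3 had 50 reads, 16 of them in Ing4+/- Ing5+/+ heart 2 (0.579 CPM, its highest level). Hoxc6 had 103 reads in 15 of the 16 libraries, and Hoxb1 had 53 reads in 7. Hoxa9 had 45 and Hoxa10 43 reads, with 13 and 17 in the library labelled Ing4+/+ Ing5-/- 1, where both were highest. Hoxd8 had 26 reads and was highest in Ing4+/- Ing5+/+ heart 1, at 0.188 CPM. The remaining 15 genes with reads (Hoxd1, Hoxb6, Hoxa7, Hoxb7, Hoxb8, Hoxc8, Hoxb9, Hoxc9, Hoxd9, Hoxc10, Hoxd10, Hoxa11, Hoxa13, Hoxc13 and Hoxd13) had 2 to 19 reads each and at most 0.293 CPM in any heart.

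Tests were made with edgeR's quasi-likelihood model, fitted to all 15785 genes and all 16 libraries, and the threshold for a call was 0.05 after Benjamini-Hochberg adjustment over those genes. None of the 7 Hox genes was called in any of the 5 pairwise comparisons or for the interaction. DESeq2 and limma-voom called none either. The members tested passed the filter partly through the hearts in which they were high, so their counts and medians below describe these 7 genes and not all Hox genes.

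In Ing4+/- Ing5-/- against Ing4+/+ Ing5+/+ hearts, the comparison that asks what the loss of 3 of the 4 alleles changed, none of the 7 differences was larger than its SE. Hoxb2 differed by 0.16 ± 0.22 on the log2 scale (SE; 95% interval -0.28 to 0.60; edgeR adjusted p = 0.842) and Hoxb3 by -0.13 ± 0.31 (-0.75 to 0.48; adjusted p = 0.918). Hoxb4 differed by -0.01 ± 0.44 (-0.88 to 0.86; edgeR adjusted p = 0.996). The 4 Hoxa genes had wider intervals. Hoxa4 differed by -0.68 ± 1.61 (-3.84 to 2.48; edgeR adjusted p = 0.919), Hoxa2 by 0.38 ± 1.03 (-1.64 to 2.39; adjusted p = 0.931), Hoxa5 by -0.34 ± 1.16 (-2.61 to 1.93; adjusted p = 0.944) and Hoxa3 by 0.15 ± 0.80 (-1.43 to 1.72; adjusted p = 0.966). Of the 7 genes, 3 had a positive and 4 a negative difference, with a median of -0.01 against 0.00 over all genes tested. The edgeR model called 0.855% of all genes in this comparison, 11.4% had an unadjusted p under 0.05 and for 10.2% the hearts of the genotypes did not overlap. None of the 7 Hox genes met any of these 3 criteria, and DESeq2 and limma-voom also gave no Hox gene an unadjusted p under 0.05. Without the library labelled Ing4+/+ Ing5-/- 1 the smallest adjusted p of the 7 was 0.735 while 2.02% of all genes were called, and without the library labelled Ing4+/+ Ing5+/+ 2 the median was -0.15. The summed level of the 38 genes was 12.4 ± 2.47 CPM in Ing4+/- Ing5-/- and 12.2 ± 3.135 CPM in Ing4+/+ Ing5+/+ hearts (SD, n = 4 each). Of the markers of other cell types, Krt19 of the epicardium rose (80.3 ± 8.73 CPM in Ing4+/- Ing5-/- and 49.1 ± 3.49 CPM in wild-type hearts, edgeR adjusted p = 0.00501) and Mab21l2 of the septum transversum and proepicardium fell (15.2 ± 3.02 and 23.7 ± 3.22 CPM, adjusted p = 0.0244). Krt19 ran against its list: the other 9 of the 10 epicardial genes had negative differences and were not called (list median -0.37), among them Wt1 with 57.2 CPM in Ing4+/- Ing5-/- and 67.7 CPM in wild-type hearts. Of the 10 genes of the septum transversum and proepicardium 6 had a negative difference, with a list median of -0.02. The other marker lists had no gene called. Their medians were 0.55 for pharyngeal arch, 0.39 for liver bud, 0.34 for foregut and lung endoderm and 0.20 for posterior second heart field genes. All 4 tested genes of liver bud and of foregut and lung endoderm were positive, and 4 of 6 of pharyngeal arch. The median was 0.02 for somite, limb and body wall, -0.06 for neurons and neural tube, -0.09 for neural crest and -0.13 for cardiomyocyte genes. The part of those cells in the Hox values was not tested.

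In Ing4+/+ Ing5-/- against Ing4+/+ Ing5+/+ hearts, all 7 fitted differences were positive and none passed the threshold. Hoxb4 differed by 1.25 ± 0.43 (edgeR adjusted p = 0.402), Hoxb2 by 0.65 ± 0.22 (adjusted p = 0.402), Hoxb3 by 0.77 ± 0.31 (adjusted p = 0.479) and Hoxa5 by 2.38 ± 1.05 (adjusted p = 0.504). The median was 1.91, against 0.01 over all genes. Of the 7 genes, 5 had an unadjusted p under 0.05 with edgeR, 5 with DESeq2 and 4 with limma-voom, against 9.59% of all genes with edgeR, while 0.0127% of all genes were called. Hoxa2 was the gene whose hearts did not overlap, as in 4.74% of all genes. With litter as a block the median was 1.13 and none of the 7 had an unadjusted p under 0.05. The median was 2.10 and Hoxb3 differed by 0.54 without the library labelled Ing4+/+ Ing5+/+ 2, whose Ing4 level goes against its label.

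Leaving out the library labelled Ing4+/+ Ing5-/- 1 lowered that median to 0.86, against 0.01 over all genes. Hoxa5 then differed by 0.41 ± 0.78 (edgeR adjusted p = 0.991), Hoxa4 by 1.00 ± 1.29 against 2.65 ± 1.37 with it, Hoxb4 by 0.86 ± 0.42 (adjusted p = 0.967) and Hoxb2 by 0.36 ± 0.19 (adjusted p = 0.991). All 7 differences stayed positive, and none had an unadjusted p under 0.05, which 5.19% of all genes had. No gene of any kind was called without that library (0%). Hoxa2 moved little, with 1.82 ± 1.00 without it and 1.92 ± 0.94 with it (adjusted p = 0.991 and 0.528). Several marker lists had positive medians in this comparison too, with none called. The median was 1.88 for the 4 liver bud genes tested, 0.67 for the septum transversum and proepicardium, 0.50 for the posterior second heart field and 0.33 for the epicardium, where all 10 genes were positive. Without that library the median was 1.26 for liver bud, 0.15 for septum transversum and proepicardium, 0.11 for posterior second heart field and -0.18 for epicardial genes. Pharyngeal arch genes had a median of 0.37 with it and -0.18 without it. With it the median was 0.18 for foregut and lung endoderm and 0.06 for somite, limb and body wall genes. For neural crest it was 0.003, and for neurons and neural tube -0.003. Cardiomyocyte genes had a median of -0.20, with 7 of 10 negative, and of -0.04 without that library. Their part in the Hox values was not tested.

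In Ing4+/- Ing5+/+ against Ing4+/+ Ing5+/+ hearts, all 7 differences were positive as well. Hoxa3 differed by 2.27 ± 0.74 (95% interval 0.82 to 3.72; edgeR adjusted p = 0.963), Hoxb4 by 1.21 ± 0.43 (0.36 to 2.05; adjusted p = 0.963) and Hoxa5 by 1.99 ± 1.05 (-0.07 to 4.06; adjusted p = 0.963). Hoxb2 differed by 0.08 ± 0.22. The median was 1.25, against 0.01 over all genes. Hoxa3 and Hoxb4 had an unadjusted p under 0.05, 2 of 7 as with DESeq2 and limma-voom, against 4.73% of all genes. Hoxa3 was the gene whose hearts did not overlap, as in 3.78% of all genes, and no gene of any kind was called (0%). The library labelled Ing4+/+ Ing5-/- 1 enters this comparison through the shared estimate of spread, and without it 4 of the 7 genes (Hoxa3, Hoxb3, Hoxb4 and Hoxa5) had an unadjusted p under 0.05, against 6.83% of all genes, and Hoxa3, Hoxb4 and Hoxa5 each had an adjusted p of 0.683. The median was 1.64 and Hoxb3 differed by 0.30 without the library labelled Ing4+/+ Ing5+/+ 2, against 1.25 and 0.52 with it. Marker lists had medians of 0.37 for liver bud, 0.37 for posterior second heart field, 0.35 for pharyngeal arch and 0.32 for septum transversum and proepicardium genes. The median was 0.17 for neural crest, 0.14 for somite, limb and body wall and 0.03 for neurons and neural tube genes. It was -0.09 for epicardium, -0.13 for foregut and lung endoderm and -0.21 for cardiomyocyte genes. All 10 cardiomyocyte genes had a negative difference, and no gene of these lists was called. The part of these tissues in the Hox values was not tested.

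In Ing4+/- Ing5-/- against Ing4+/- Ing5+/+ hearts, which differ in Ing5, 6 of the 7 genes had a negative difference. Hoxa3 had the smallest adjusted p of the 7 genes in the 5 pairwise comparisons, at -2.13 ± 0.73 (95% interval -3.55 to -0.70; edgeR adjusted p = 0.177, DESeq2 0.0723). Hoxb4 differed by -1.22 ± 0.43 (-2.06 to -0.38; adjusted p = 0.190), Hoxa5 by -2.34 ± 1.07 (adjusted p = 0.352), Hoxb3 by -0.65 ± 0.31 (adjusted p = 0.356) and Hoxb2 by 0.08 ± 0.22 (adjusted p = 0.909). The median was -1.22, against 0.00 over all genes. Of the 7 genes 4 had an unadjusted p under 0.05 with edgeR, 4 with DESeq2 and 2 with limma-voom, against 13.9% of all genes with edgeR, and Hoxa3 did not overlap, as in 10.1% of all genes. The model called 1.16% of all genes in this comparison and none of the 7. Without the library labelled Ing4+/+ Ing5-/- 1, the adjusted p was 0.0787 for Hoxa3, 0.0896 for Hoxa5 and 0.0994 for Hoxb4, the median was again -1.22, and the model called none of the 7 and 2.9% of all genes. Markers of the heart's surface and its neighbours were among the genes called: Krt19, a keratin of the epicardium, rose to 80.3 ± 8.73 CPM in Ing4+/- Ing5-/- hearts, against 39.4 ± 4.51 CPM in Ing4+/- Ing5+/+ hearts, and was the one epicardial gene of 10 to be called. The other 9 had negative differences (list median -0.32), among them Tcf21 with 30.6 CPM in Ing4+/- Ing5-/- and 45.5 CPM in Ing4+/- Ing5+/+ hearts. Mab21l2 (15.2 ± 3.02 against 23.4 ± 1.91 CPM) and Barx1 (1.51 ± 0.205 against 3.65 ± 0.960 CPM), of the 10 genes of the septum transversum and proepicardium, fell, and the list median was -0.30. The other marker lists had no gene called. Their medians were -0.39 for pharyngeal arch, -0.28 for posterior second heart field, -0.20 for neural crest and -0.11 for liver bud genes. The median was -0.11 for somite, limb and body wall, -0.07 for neurons and neural tube and -0.01 for cardiomyocyte genes. For foregut and lung endoderm it was 0.35. The part of those cells in the Hox values was not tested.

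In Ing4+/- Ing5-/- against Ing4+/+ Ing5-/- hearts, which differ in Ing4, all 7 differences were negative. Hoxb4 differed by -1.26 ± 0.43 (edgeR adjusted p = 0.647), Hoxb3 by -0.90 ± 0.31 (adjusted p = 0.659) and Hoxa5 by -2.72 ± 1.07 (adjusted p = 0.718). The median was -1.55, against 0.00 over all genes. With edgeR 6 of the 7 genes had an unadjusted p under 0.05, with DESeq2 6 and with limma-voom 2, against 6.63% of all genes with edgeR. Hoxa2 was the gene whose hearts did not overlap, as in 3% of all genes, and 0.00634% of all genes were called. When litter was a block, the median was -1.18 and 1 of the 7 genes had an unadjusted p under 0.05. The list medians were -1.51 for liver bud, -0.73 for epicardium and -0.31 for septum transversum and proepicardium genes, with none called. They were -0.86 for liver bud, -0.19 for epicardium and -0.35 for septum transversum and proepicardium genes without the library labelled Ing4+/+ Ing5-/- 1. Other lists, with that library, had medians of -0.28 for neurons and neural tube, -0.10 for posterior second heart field and -0.05 for somite, limb and body wall. The median was 0.03 for foregut and lung endoderm, 0.07 for neural crest and 0.07 for pharyngeal arch genes. Cardiomyocyte genes had a median of 0.03 with that library and -0.08 without it. Their part in the Hox values was not tested.

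Without the library labelled Ing4+/+ Ing5-/- 1 the median of this comparison was -0.88, and 1 of the 7 genes, Hoxb4, had an unadjusted p under 0.05, against 4.11% of all genes. Hoxb4 then differed by -0.88 ± 0.42, Hoxb3 by -0.49 ± 0.26 and Hoxa5 by -0.76 ± 0.79, each with an edgeR adjusted p of 1.00. All 7 stayed negative, and 0.0063% of all genes were called.

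The interaction asks whether the difference that goes with the loss of an Ing4 allele was the same with and without Ing5, and it uses the same hearts as the comparisons above. It was negative for all 7 genes, with a median of -2.80 against -0.01 over all genes, and no gene of any kind was called (0%). It was -2.47 ± 0.61 for Hoxb4 (edgeR adjusted p = 0.781), -4.03 ± 1.04 for Hoxa3 (adjusted p = 0.822), -1.42 ± 0.43 for Hoxb3 (adjusted p = 0.830) and -4.72 ± 1.5 for Hoxa5 (adjusted p = 0.830). Of the 7 genes, 6 had an unadjusted p under 0.05 with edgeR, 6 with DESeq2 and 3 with limma-voom, against 5.88% of all genes with edgeR. Without the library labelled Ing4+/+ Ing5-/- 1 the values were -2.08 ± 0.58 for Hoxb4, -3.15 ± 0.96 for Hoxa3, -1.01 ± 0.35 for Hoxb3 and -2.75 ± 1.06 for Hoxa5, each with an adjusted p of 0.998, and 4 genes had an unadjusted p under 0.05, against 4.47% of all genes, of which again 0% were called. A litter block left 3 of the 7 with an unadjusted p under 0.05, and without the library labelled Ing4+/+ Ing5+/+ 2 the median was -3.34. Several marker lists had negative medians in the interaction as well, with none called: -1.82 for liver bud, -0.97 for septum transversum and proepicardium, -0.66 for epicardium, -0.55 for pharyngeal arch and -0.52 for posterior second heart field genes. Of other lists, the median was -0.23 for somite, limb and body wall and -0.10 for neurons and neural tube genes. For neural crest it was -0.02, and for foregut and lung endoderm 0.16. For cardiomyocyte genes it was 0.20, with 8 of 10 positive, and 0.07 without the library labelled Ing4+/+ Ing5-/- 1. Leaving out the library labelled Ing4+/+ Ing5-/- 1 gave -1.20 for liver bud, -0.58 for septum transversum and proepicardium, -0.09 for epicardium, -0.29 for pharyngeal arch and -0.41 for posterior second heart field genes, and a Hox median of -2.69. Their part in the Hox values was not tested. In the values by heart, the mean of each of the 7 genes was higher in each single mutant than in wild-type hearts, and no comparison of them passed the threshold.

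**Figure D4:**
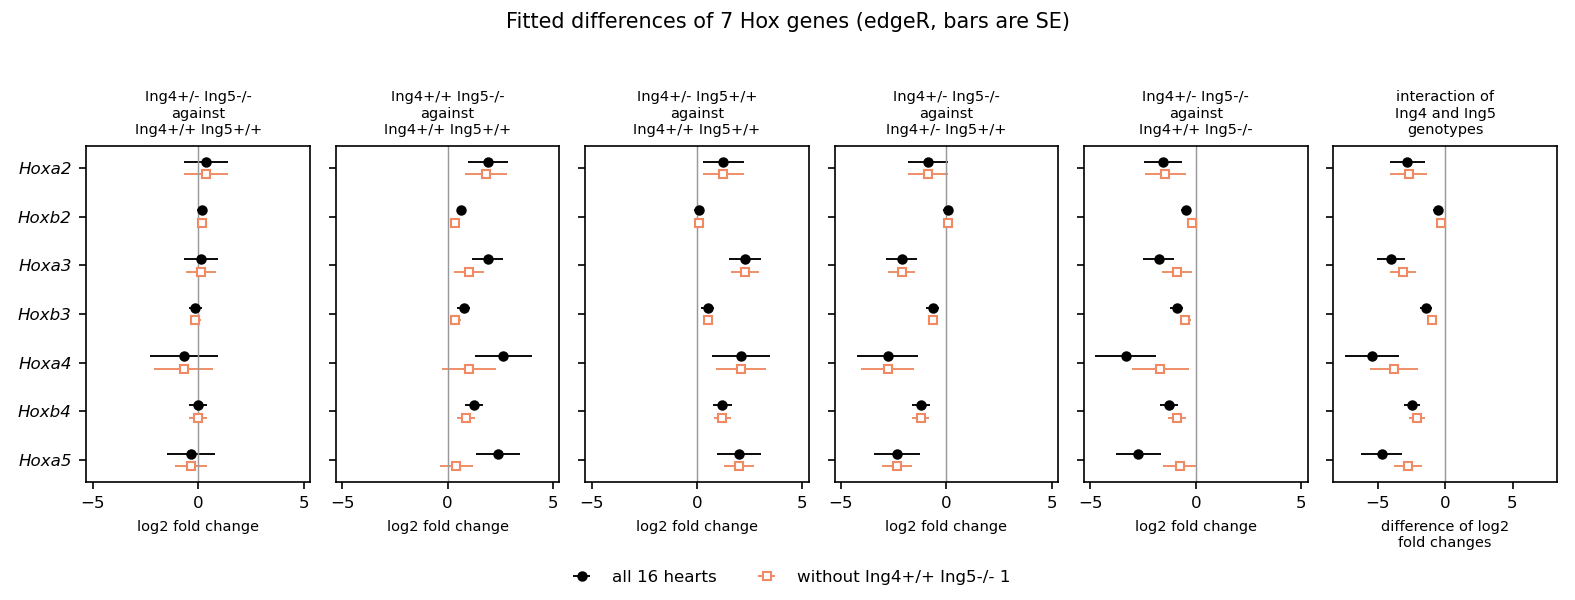
Fitted log2 fold changes of 7 Hox genes tested, in 5 pairwise comparisons and the interaction (the last as a difference of log2 fold changes, on a wider axis), with all 16 hearts (filled circles) and without the library labelled Ing4+/+ Ing5-/- 1 (open squares); bars are SEs. In the leftmost panel, Ing4+/- Ing5-/- against wild-type hearts, the values lie around 0, and without that library the medians of the comparisons that use Ing4+/+ Ing5-/- hearts are 0.86 in place of 1.91 and -0.88 in place of -1.55.

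The library labelled Ing4+/+ Ing5-/- 1 had 1626 Hox reads (52.9 CPM summed over the 38 genes), while the other 15 libraries had 199 to 718 reads (8.94 to 26.0 CPM). It was the highest of the 16 for 5 of the 7 tested Hox genes and for 14 of the 25 untested ones with reads. It was also the highest for 21.0% of all genes tested, where 2 others reached 17.6% (Ing4+/- Ing5+/+ 4) and 10.7% (Ing4+/- Ing5-/- 2). Its litter, litter 1, held 2 more embryos: Ing4+/+ Ing5-/- heart 2 had 0.351 CPM and Ing4+/- Ing5-/- heart 1 had 0.610 CPM of Hoxa5, against 8.0 CPM in that library. Summed over the 38 genes these 2 hearts had 15.9 and 11.9 CPM. For paralogs 6 to 13 they had 1.72 and 0.644 CPM, against 3.35 CPM in that library and at most 1.05 CPM in other litters.

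Markers of the epicardium and of the liver bud were also high in that library. The 10 epicardial genes summed to 1422 CPM in it and to 408.6 to 680.0 CPM in the other 15, with 9 of the 10 at their highest there, among them Wt1 (149.7 against 48.5 to 74.5 CPM) and Upk3b (388.4 against 91.3 to 193.1 CPM). The 10 liver bud genes summed to 31.5 CPM, against 1.04 to 17.7 CPM in the others, with 7 of the 10 at their highest there. Its level of Alb, the liver's albumin, was 14.6 CPM. Osr1, a marker of the posterior second heart field, stood at 16.2 CPM, against 1.5 to 11.4 CPM in the others, although the 10 genes of that list summed to 302.8 CPM, inside the range of 172.2 to 318.4 CPM. Of those 10 genes 4 were at their highest there and 1 at its lowest.

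The sums of the other lists lay inside or near the range of the other 15 libraries. The 10 genes of the septum transversum and proepicardium summed to 390.4 CPM in it (376.1 to 482.0 CPM in the others), the 10 neural crest genes to 92.0 CPM, the lowest of the 16 (94.4 to 146.0 CPM), the 10 genes of neurons and neural tube to 50.8 CPM (28.4 to 51.9 CPM), the 12 genes of somite, limb and body wall to 92.6 CPM (86.0 to 124.5 CPM), the 10 pharyngeal arch genes to 7.81 CPM (3.80 to 8.60 CPM) and the 10 genes of foregut and lung endoderm to 116.6 CPM (73.2 to 135.1 CPM). Sums follow their highest genes. In that library 4 septum transversum and proepicardium genes were highest and 1 lowest, among the former Lhx9 (18.4 against at most 11.2 CPM). For neurons and neural tube 3 were highest and 0 lowest, among the former Dcx (5.63 against at most 2.03 CPM). These counts were 2 and 2 for neural crest and 2 and 0 for pharyngeal arch. They were 2 and 1 for foregut and lung endoderm and 1 and 0 for somite, limb and body wall. Of the foregut and lung endoderm genes, Epcam (2.24 against at most 1.98 CPM) and Cldn6 (2.31 against at most 2.05 CPM) were highest in that library, and Irx2 was lowest (14.6 CPM). Nkx2-1, the defining marker of thyroid and lung buds, had no read there and 1.29 CPM in Ing4+/- Ing5-/- heart 4, and Lmx1b of limb and kidney had none. Liver transcripts were found in other libraries too: Ing4+/- Ing5+/+ hearts 2 and 4 had 6.04 and 14.1 CPM of Afp, and Ing4+/+ Ing5-/- heart 2 had 7.33 CPM of Alb. The part of these tissues in the Hox values was not tested.

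**Figure D5:**
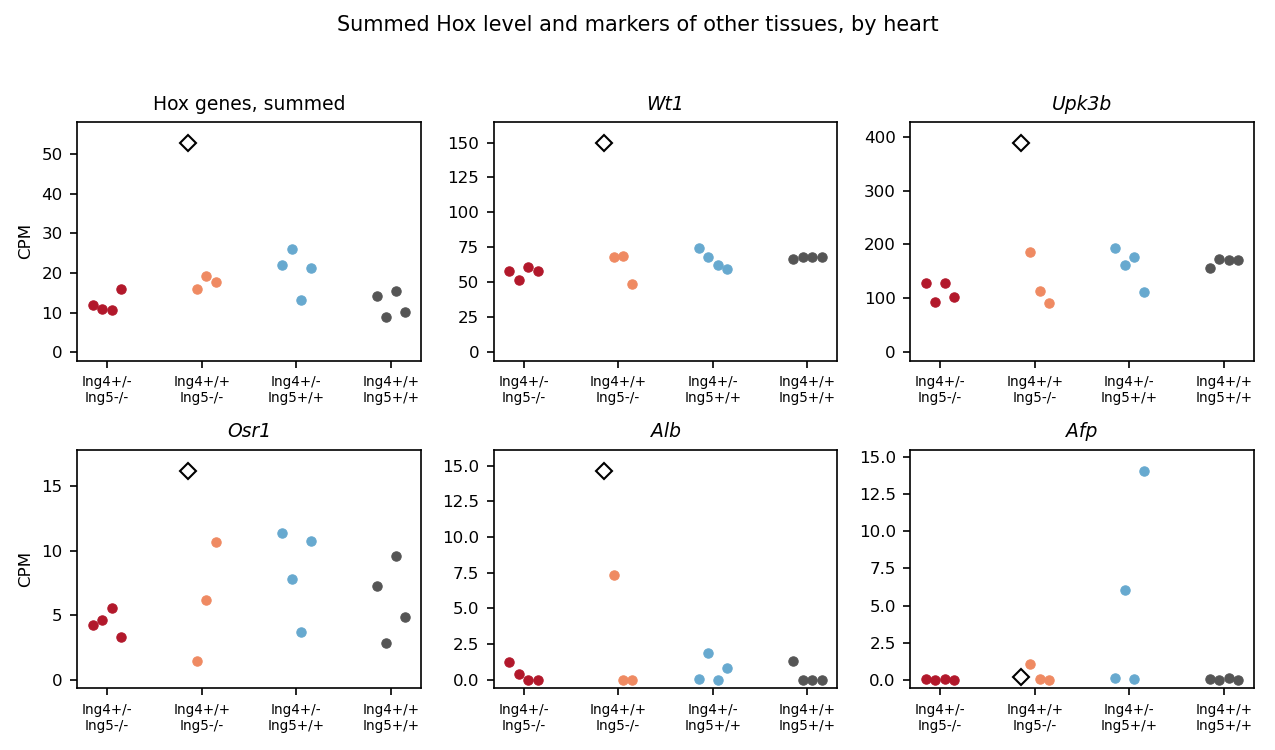
Summed CPM of the 38 Hox genes and CPM of Wt1 and Upk3b (epicardium), Osr1 (posterior second heart field), Alb and Afp (liver bud) in each heart, by genotype. The open diamond is the library labelled Ing4+/+ Ing5-/- 1, which is the highest for the Hox sum (52.9 CPM), Wt1, Upk3b, Osr1 and Alb but not for Afp, where Ing4+/- Ing5+/+ heart 4 has 14.1 CPM.

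Among genes that act with or on Hox genes, few were called. The 8 HOX cofactors examined (Meis1 to Meis3, Pbx2 to Pbx4, Pknox1 and Pknox2) were called in no comparison. Pbx2 averaged 178.5, Meis2 91.7 and Meis1 67.4 CPM over the 16 hearts, and the cofactors' median difference between Ing4+/- Ing5-/- and wild-type hearts was -0.04. Of 21 upstream regulators, 16 were tested and none was called. The posterior activators Cdx2 and Cdx4 had no read in any library. Aldh1a2 and Aldh1a1, which make retinoic acid and also mark the epicardium, had 97.0 and 86.0 CPM in the library labelled Ing4+/+ Ing5-/- 1 and at most 47.9 and 35.9 CPM in the others.

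Of the chromatin regulators, no gene of the 8 of trithorax complexes and the 19 of polycomb complexes was called in any comparison. Kmt2a, the MLL methyltransferase that maintains Hox expression, had 133.5 CPM in the library labelled Ing4+/+ Ing5-/- 1 and 74.7 to 103.0 CPM in the others. The rest of the trithorax list went both ways in that library. Kmt2b (132.9 against at most 112.4 CPM) and Dpy30 (67.65 against at most 58.23 CPM) were also highest there. Psip1 (156.2 CPM) and Ash2l (90.45 CPM) were lowest there, and Men1, Wdr5 and Rbbp5 lay inside the range of the others. Of the 12 MYST complex genes tested, Ing5 itself fell in Ing4+/- Ing5-/- hearts, to 21.0 ± 2.75 CPM against 37.2 ± 3.70 CPM in Ing4+/- Ing5+/+ hearts (log2 fold change -0.82 ± 0.125, edgeR adjusted p = 0.00169) and 33.5 ± 3.46 CPM in Ing4+/+ Ing5+/+ hearts (-0.68 ± 0.13, adjusted p = 0.0122). In Ing4+/+ Ing5-/- against wild-type hearts Ing5 was not called (23.5 ± 4.48 and 33.5 ± 3.46 CPM). The other 11 genes, Ing4 included, were called in no comparison. Among them were Kat6a, an acetyltransferase whose loss in mice is known to shift Hox boundaries, at 122.8 CPM over the 16 hearts, and Kat7 at 90.7 CPM.

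Inside the 4 clusters the annotation placed 14 genes of the table that are not Hox genes, 8 long noncoding RNAs and 6 microRNA hairpins. None was tested, 6 had any read, and the most was 27 reads for Hoxa11os, antisense to Hoxa11, of which 15 came from the library labelled Ing4+/+ Ing5-/- 1. The kit marked the strand, but the strand setting of the counting is not given in the sources used here, so reads of an antisense gene and its partner are uncertain. Mir10a, which lies next to Hoxb4, had 1 read and Mir196a-1 had 4 reads, and Hotair and Mir10b had none.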

How the data were processed

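Hearts of 16 mouse embryos were sequenced as stranded libraries of total RNA, per the labels' protocols. The authors deposited raw counts per gene, not normalized, with the length of each gene in bases (other), used here for CPM per kb. The submitters' processing notes name bcl2fastq, featureCounts and the mm10 build. The aligner, the annotation and the strand setting: not given in the sources used here. All 16 single-sample tables equalled the series table. Of 27179 gene IDs, 25275 (93.0%) were matched to a symbol in RefSeq's GRCm38.p6 annotation, all 39 members among them. Total counts ranged from 19753100 to 35664331 per library.

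The members and gene lists were chosen with earlier results of these data known. A Hox gene and a cofactor gene are not reported here and enter no sum, count or median below, though they stayed in the fits. Every other member was accounted for: those that passed the low-count filter, 4 of them with a mean of at least 1 CPM, are given by heart, and the others by reads and ranges. Members of the gene lists were named where called, with up to 4 more per list by level. The trithorax list is the exception, with all 8 genes named. Cdx2, Cdx4, Aldh1a1, the trithorax genes, Hoxc4, Hoxc5, Hoxd4 and Hoxb5 were chosen after their values were seen.

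In R 4.3.3, edgeR 4.0.16 removed 11394 genes with low counts and kept 15785, scaled libraries by TMM (factors 0.967 to 1.08) and fitted a robust quasi-likelihood model of the 4 group means to all 16 libraries. P-values were Benjamini-Hochberg adjusted over all genes. Each SE was derived from the F statistic as the absolute log2 fold change over its square root. DESeq2 1.42.0 and limma-voom (limma 3.58.1) were alternatives, with other filters and size factors, litter or replicate number as a block, and leaving out each library in turn. A prior that is not robust was added after seeing the data. The pipeline was tested on simulated data. Whether replicate numbers pair the hearts was checked by correlating log2 CPM, less the genotype mean, between hearts of different genotypes. Of these, 6 of 24 pairs with a shared number, and 3 of 11 pairs from a shared litter, had a correlation over 0.1. The medians were 0.00915 and 0.0273, so numbers were not taken as pairs.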

Additional observations from a re-analysis of the deposited data

Results flagged for a closer look

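In each genotype and for each of 7 tested genes, the heart farthest from the other 3 was compared with the range of the 4 (Dixon's test). Of 28 sets of 4 hearts, 3 held a heart past the 95% limit, where chance gives about 1.4, 1 in 20. Hoxa5 in the library labelled Ing4+/+ Ing5-/- 1 had 8.0 CPM, against 0.317 to 1.18 CPM in the other 3 hearts of the genotype. Hoxa3 in Ing4+/- Ing5+/+ heart 4 had 3.01 CPM, against 0.708 to 1.02 CPM in the other 3. Hoxa3 in Ing4+/+ Ing5+/+ heart 4 had 0 CPM, against 0.325 to 0.380 CPM in the other 3, in the library with the fewest counted reads.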

How the results depend on the processing

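None of the Hox genes described was called in any comparison under any alternative: DESeq2 size factors, no filter (32 members tested), a minimum of 1 CPM in 4 libraries, a fit to the compared groups alone, DESeq2, limma-voom, litter as a block, the replicate block, no robust prior, 3 libraries that stood apart left out together (Ing4+/- Ing5-/- 2, Ing4+/+ Ing5-/- 1 and Ing4+/- Ing5+/+ 4), or each library left out in turn. The count of 0 under the replicate block equals that of the model without it. The smallest adjusted p of any alternative that kept all 16 libraries was 0.0723 (Hoxa3, Ing4+/- Ing5-/- against Ing4+/- Ing5+/+, DESeq2). The directions that turned belonged to differences that were not called. In Ing4+/- Ing5-/- against wild-type hearts Hoxb4, at -0.01, was 0.0267 with limma-voom, 0.11 with litter as a block, 0.0119 with the replicate block and 0.11 without the 3 libraries, and Hoxa3, at 0.15, was -0.10 without the 3 libraries. Hoxa2 in Ing4+/- Ing5-/- against Ing4+/- Ing5+/+ hearts, at -0.88, was 0.37 with limma-voom and 0.01001 with litter as a block. The cause was not tested. Leaving out 1 library in turn gave -0.28 to 0.28 for Hoxb4, -0.0342 to 0.92 for Hoxa2, -0.22 to 0.39 for Hoxa3 and -0.35 to 0.0377 for Hoxb3 in Ing4+/- Ing5-/- against wild-type hearts and -0.0161 to 0.17 for Hoxb2 in Ing4+/- Ing5-/- against Ing4+/- Ing5+/+ hearts. Without the 3 libraries the median of the 7 genes was 0.85 in Ing4+/+ Ing5-/- against wild-type hearts and -0.82 in Ing4+/- Ing5-/- against Ing4+/+ Ing5-/- hearts. Low counts limit all of this: 31 of the 38 genes could not be tested, and a gene with no read in a library may have a level up to the floor of 3 reads.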
